A study of Mus musculus with 9 samples.

Results

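RNA from 9 histone genes was followed in mouse embryonic stem (ES) cells sorted by their level of Myc, a transcription factor that promotes growth. The genes were picked by name: Hist1h1c, Hist1h2bc, Hist1h4i, H1f0, H2afx, H2afy, H2afz, H3f3a and H3f3b. All 9 were found among the 13499 genes of the authors' table. ES cells are cultured cells that can form the tissues of the embryo. The C57BL/6 cells grew on gelatine with LIF and were sorted on a cytometer into Low, Medium and High C-myc populations, with 3 biological replicates of each. GFP-Myc and EYFP are both named as the sorted fluorescence, and the labels do not tie either to a given library. RNA of a population is an average over its cells, so fewer cells of a type and less RNA per cell cannot be told apart.

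DNA in the nucleus is wrapped around an octamer of the core histones H2A, H2B, H3 and H4, and linker histone H1 binds where the DNA enters and leaves it. Most histone proteins are made in S phase from replication-dependent genes. Their mRNAs carry no poly(A) tail and end just after a stem-loop that is bound by SLBP. Histone variants such as H3.3, H2A.Z and macroH2A are made through the whole cell cycle from ordinary polyadenylated mRNAs, and some replication-dependent genes can also give polyadenylated mRNA that runs past the stem-loop.

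The stem-loops are shown because they are the 3′ end feature of replication-dependent histone mRNAs. In the longest protein-coding transcript of each gene (GENCODE release M21, GRCm38), the 16-base pattern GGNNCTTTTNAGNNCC was searched on the transcript strand. It was present in 3 of the 9 genes and in 0.315% of 21901 protein-coding genes. Capitals mark the stem-loop and small letters 5 bases on each side. The sites lie at chr13:23739507-23739532 on the plus strand, chr13:22040961-22040986 on the minus strand and chr9:44335235-44335260 on the plus strand.
Hist1h1c: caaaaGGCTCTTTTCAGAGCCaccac
Hist1h4i: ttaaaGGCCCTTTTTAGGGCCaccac
H2afx: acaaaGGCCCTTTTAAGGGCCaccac
The annotated transcripts went on for 840, 330 and 822 nt past the stem-loop, and each had a poly(A) signal (AATAAA or ATTAAA on the transcript strand) starting in its last 50 nt. H1f0, H2afz and H3f3a had such a signal and no stem-loop. Hist1h2bc, H2afy and H3f3b had neither pattern in that transcript, although Hist1h2bc is a gene of a replication-dependent histone cluster. Over all protein-coding genes, 72.2% had the signal.

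The annotation of other histone genes differed in the same feature. Among histone genes named Hist, together with H2afx, 44 held the stem-loop pattern, and 5 of these were in the table: the 3 above with Hist3h2a and Hist3h2ba. All 5 had the poly(A) signal, against 8 of the other 39. The annotated transcript ran a median of 822 nt past the stem-loop in the 5 genes (169 to 1643 nt) and 57 nt in the 39 (3 to 4884 nt). It ran at least 300 nt past it in 4 of the 5 and in 15 of the 39. Why a gene was in the table or absent from it was not tested. Of a list of 60 further replication-dependent histone names, 0 were in the table, and they were not analysed here. The labels call the sample total RNA, and whether poly(A) RNA was enriched is not stated in them.

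The 9 libraries held 11114936 to 16755566 recovered reads. Values below are the authors' signal, read counts scaled per library so that each totals near the size of CPM data, as mean ± SD (n = 3). Low libraries differed from each other in transcript length: the shortest 25% of transcripts (at most 2100 nt) had a median log2 deviation from the gene mean of -0.14 in Low replicate 1, 0.28 in Low replicate 2 and 0.12 in Low replicate 3. Of the 9 histone genes, 6 have a longest transcript of this size. In all 9, Low replicate 1 was the lowest of the Low libraries, as it was in 42.5% of all genes. All 6 listed ES cell markers were in the table, with a summed signal of 3707 to 5014 in Low, 4124 to 4732 in Medium and 4295 to 4946 in High. Between High and Low, 2 of them were higher in High and 0 lower (limma), beside 13.8% of all genes higher. Between Medium and Low, 1 was higher in Medium and 0 lower, beside 6.14% of all genes higher. Trophoblast markers, listed for the placental lineage, moved with the sort. Of the 8 listed, 6 were in the table: Krt7, Krt8, Krt18, Ascl2, Rhox6 and Rhox9. All 6 were lower in High than in Low (limma), beside 14.6% of all genes. Their summed signal ran from 267 to 363 in Low, 82.9 to 101 in Medium and 38.8 to 42.6 in High. Cdx2 and Elf5, which define that lineage, were not among the names in the table. Primitive endoderm markers (2 of 6 in the table, Dab2 and Sparc) summed to 220 to 237 in Low, 335 to 359 in Medium and 424 to 439 in High, nearly all of it Sparc, which was higher in High than in Low (limma), while Dab2 was lower (6.02 ± 0.347 in Low and 2.22 ± 0.518 in High). Fibroblast markers (5 of 6) summed to 23.5 to 38.6, 34.8 to 58.7 and 27.8 to 40.8, and 0 of 4 markers of 2-cell-like cells were among the names. The part of these cells in the results below was not tested.

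**Figure D1:**
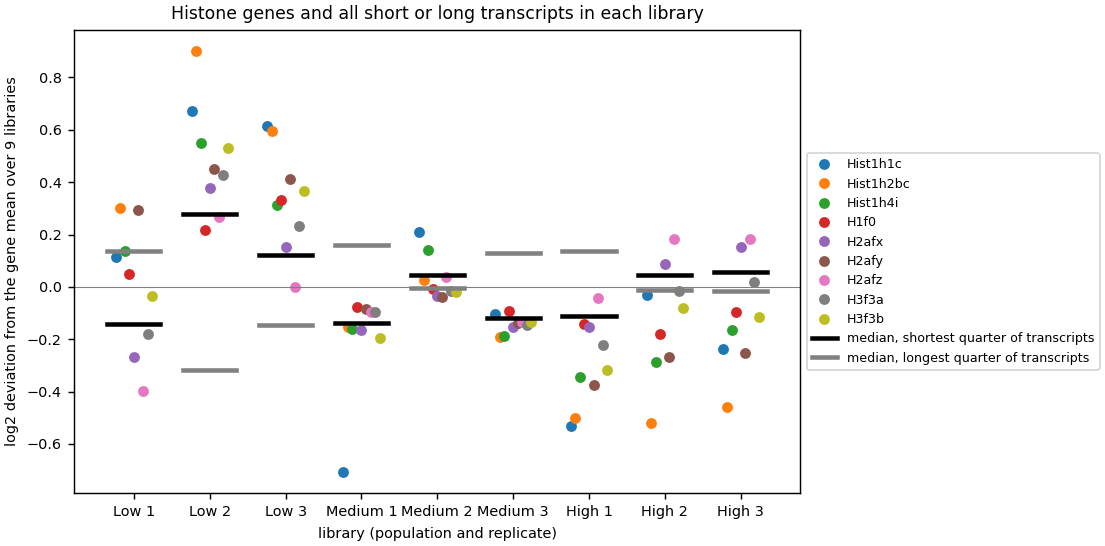
Log2 deviation of each histone gene from its mean over the 9 libraries (y axis) in each library (x axis), with bars for the median of the shortest and longest 25% of all transcripts. In Low replicate 1 the short transcripts sit at -0.14 and the long at 0.14, whereas in Low replicate 2 they sit at 0.28 and -0.32.

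Between High and Low, 5 of the 9 genes changed and all 5 were lower in High: Hist1h2bc, Hist1h4i, H1f0, H2afy and H3f3b. Of all genes, 28.4% changed, 14.6% being lower and 13.8% higher (limma, adjusted p under 0.05). With the replicate number as a block, 6 of the 9 were lower, beside 18.6% of all genes. The median log2 fold change of the 9 was -0.46, against -0.000246 over all genes. The 9 were chosen with earlier results of these data known, so these comparisons do not show that histone genes fall as a class. None of the 9 was higher: 1 had a positive fold change, and 0 passed an unadjusted p under 0.05 in limma, edgeR or DESeq2. In 6 of the 9 every High library lay below every Low library, as in 21.4% of all genes. The calls for Hist1h2bc and H2afy held in each of the 24 alternatives, the others did not. Without Low replicate 1 the count of lower genes was 7, beside 20.2% of all genes, and without High replicate 1 it was 2, beside 10.1%. It was 3 without Low replicate 2 (11.6% of all genes), Low replicate 3 (8.68%), High replicate 2 (9.97%) or High replicate 3 (10.5%).

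**Figure D2:**
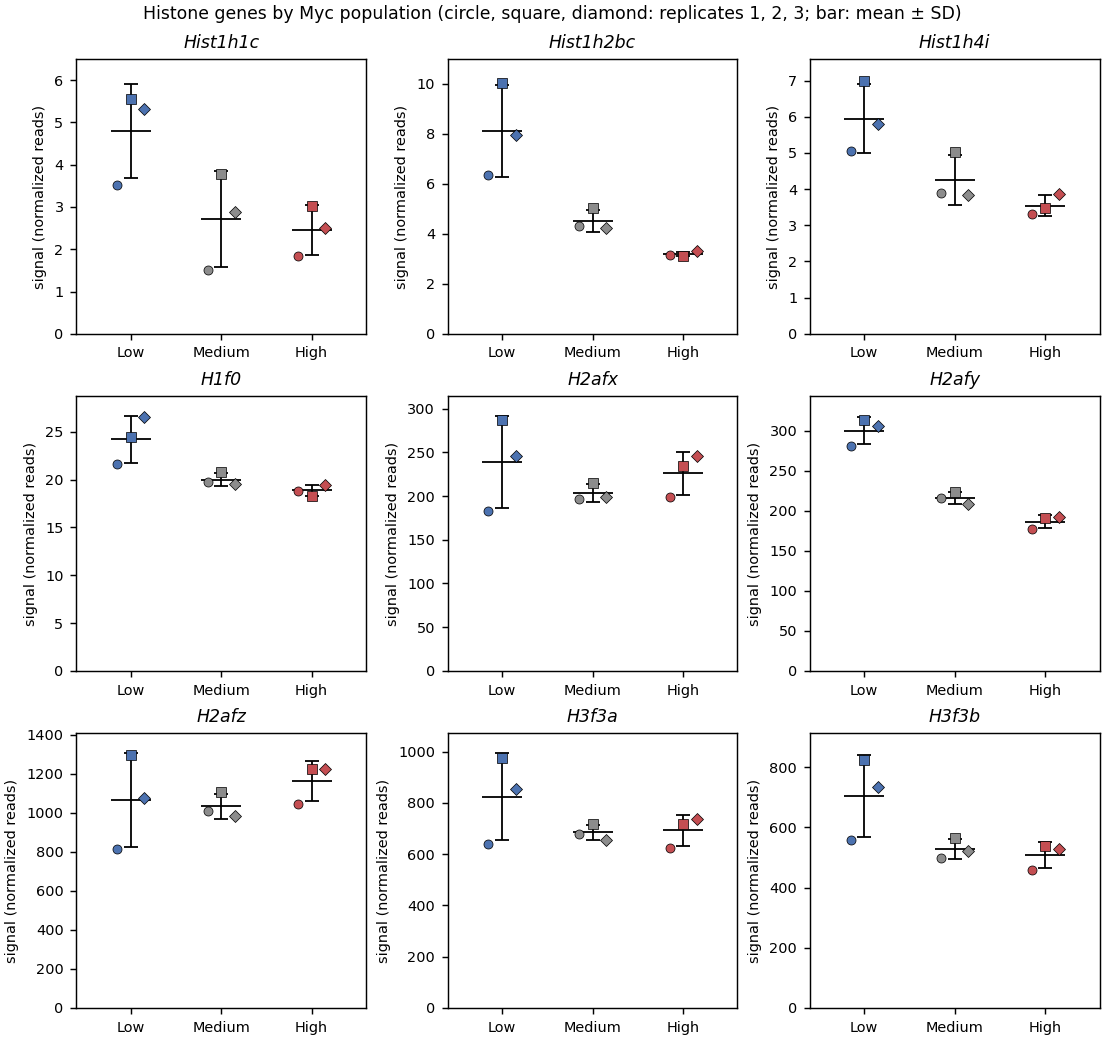
Signal (normalized reads, linear axis from 0) of each gene in the 3 Low, 3 Medium and 3 High libraries, with mean ± SD. H2afy falls from 300 in Low to 186 in High with no overlap, while the Low libraries of H2afz run from 817 to 1298 and span both other populations.

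The signals of the linker histone genes were very different, although Hist1h1c mRNA without a poly(A) tail may not be counted. H1f0 encodes H1.0, the replication-independent linker histone that accumulates in cells that stop dividing. The gene lies on chromosome 15 from 79028450 to 79030504. Its signal was 21.7, 24.4 and 26.6 in Low replicates 1 to 3, 19.7, 20.8 and 19.5 in Medium, and 18.8, 18.3 and 19.5 in High. All Low libraries lay above all Medium libraries, and these above all High libraries, the closest pair of the latter being 19.535 and 19.470. Between High and Low it fell by 0.34 on the log2 scale (SE 0.10, adjusted p = 0.0262, limma). The call was lost without Low replicate 2 (0.0584) or 3 (0.113), or without High replicate 1 (0.0729), 2 (0.0881) or 3 (0.0598).

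Hist1h1c, which encodes the somatic linker histone H1.2, was the lowest of the 9 genes, with 25 to 67 reads a library. It lies on chromosome 13 from 23738808 to 23740367. Its signal was 3.52, 5.55 and 5.33 in Low, 1.52, 3.78 and 2.87 in Medium, and 1.85, 3.02 and 2.49 in High. Every High library lay below every Low library, and Medium overlapped both. The log2 fold change for High against Low was -0.73 (SE 0.25, 95% interval -1.29 to -0.17) and did not pass (limma adjusted p = 0.0525). It passed in 11 of 23 alternatives, among them the replicate block (0.00333), a correction for transcript length (0.0271), a rescaling of libraries to 1 total (0.0459) and DESeq2 (0.0346). Dropping Low replicate 1 gave 0.0153, dropping Medium replicate 1 gave 0.0278 and dropping Medium replicate 2 gave 0.0421. Dropping any of the other 6 libraries left it above the threshold, from 0.0688 (High replicate 2) to 0.167 (High replicate 1).

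Hist1h2bc, which encodes a histone H2B, had the greatest fall of the 9. It lies on chromosome 13 from 23684199 to 23692908, and its annotated transcript has 2 exons. Its signal was 6.33, 10.02 and 7.95 in Low, 4.30, 5.03 and 4.21 in Medium, and 3.17, 3.11 and 3.299 in High, from 35 to 112 reads a library. None of the 3 populations overlapped. The High libraries had an SD of 3.00% of their mean, but their 48, 35 and 41 reads are too few for so small a spread to be read as precision. Low exceeded High 2.54-fold in mean signal. On the log2 scale the fall was 1.09 (SE 0.16, adjusted p = 0.000862, limma).

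Hist1h4i, which encodes histone H4, had a similar level and a smaller change. It lies on chromosome 13 from 22040636 to 22041362. Its signal was 5.07, 6.98 and 5.81 in Low, 3.88, 5.03 and 3.83 in Medium, and 3.301, 3.47 and 3.86 in High, from 39 to 78 reads. Low stood above both other populations, whose libraries overlapped. High was lower than Low by a log2 fold change of -0.60 (SE 0.15, adjusted p = 0.0142, limma), a call lost without High replicate 1 (0.0518). Genes for H2B and for H4 have several copies with closely similar coding sequences. How reads that match several copies were counted is not stated, so the values of Hist1h2bc and Hist1h4i are uncertain to that extent.

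H2afy encodes macroH2A1, an H2A with a large extra domain that is enriched in silent chromatin such as the inactive X chromosome. It lies on chromosome 13 from 56073619 to 56136361. Its signal was 281, 313 and 305 in Low, 216, 223 and 208 in Medium, and 177, 190 and 192 in High. The 3 populations formed separate steps. The spread was small, with an SD of 5.56% of the mean in Low, where H2afx, H2afz and both H3.3 genes had 19.3% to 22.6%. High was below Low by a log2 fold change of -0.68 (SE 0.08, adjusted p = 0.000199, limma), which is 1.61-fold in mean signal.

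H2afz encodes H2A.Z, a variant found at promoters and enhancers. The gene lies on chromosome 3 from 137864487 to 137866922. Its signal was 817, 1298 and 1077 in Low, 1010, 1108 and 982 in Medium, and 1046, 1224 and 1225 in High. The Low libraries held both the lowest and the highest of the 9 values. High against Low gave a log2 fold change of 0.15 (SE 0.15, 95% interval -0.19 to 0.50, adjusted p = 0.499, limma). After the transcript length correction it was 0.26 and passed as higher in High (adjusted p = 0.00694), where 19.5% of all genes did, and without Low replicate 1 it was -0.03 (0.872).

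H2afx encodes H2A.X, whose tail is phosphorylated around DNA breaks. The gene lies on chromosome 9 from 44334694 to 44336077. Its signal was 183, 287 and 246 in Low, 197, 215 and 199 in Medium, and 199, 235 and 246 in High. All 3 populations overlapped. High against Low gave -0.06 (SE 0.15, 95% interval -0.40 to 0.28, adjusted p = 0.811, limma), and 0.04 after the length correction (0.639).

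H3f3a and H3f3b encode the same protein, H3.3, which is deposited independently of DNA replication by the HIRA and DAXX-ATRX chaperones. H3f3a lies on chromosome 1 from 180800832 to 180813943, and H3f3b on chromosome 11 from 116021912 to 116027962. H3f3a had signals of 641, 976 and 853 in Low, 679, 718 and 657 in Medium, and 623, 719 and 736 in High. Low replicate 1 fell among the Medium and High libraries, and the other two Low libraries stood above them. Its log2 fold change for High against Low was -0.23 (SE 0.14, 95% interval -0.55 to 0.09, adjusted p = 0.258, limma). Without Low replicate 1 it was -0.40 and passed (0.00878), without Low replicate 2 it was -0.0975 (0.645) and without High replicate 1 it was -0.16 (0.545).

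H3f3b had signals of 557, 825 and 735 in Low, 499, 563 and 521 in Medium, and 458, 539 and 527 in High. All High libraries lay below all Low libraries, whereas Medium replicate 2 lay above Low replicate 1. The log2 fold change for High against Low was -0.46 (SE 0.14, adjusted p = 0.0339, limma). The call was lost without Low replicate 2 (0.0936) or 3 (0.116), Medium replicate 3 (0.0541), or High replicate 1 (0.120), 2 (0.0649) or 3 (0.0722). H1f0, H2afx, H2afy and H3f3a overlap genes annotated on the opposite strand. Whether counting used strand is not stated, so reads of the overlapping parts cannot be assigned.

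**Figure D3:**
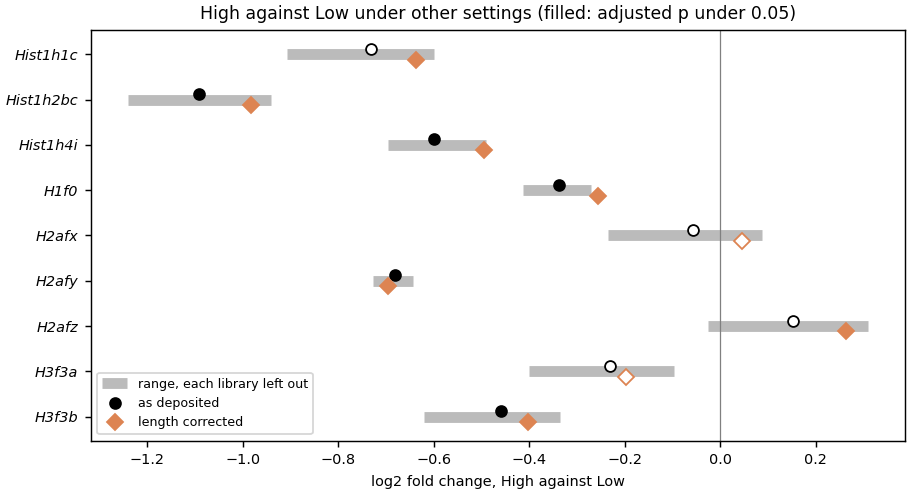
Log2 fold change for High against Low (x axis) of each gene as deposited and after the transcript length correction, with the range over fits that leave out 1 library; filled symbols have an adjusted p under 0.05. H2afz moves from 0.15 to 0.26 and is then called, and H2afx crosses 0.

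In the 5 genes called between High and Low, the fitted fold change between Medium and Low was larger than that between High and Medium, and the latter was called for none of the 9. After the length correction this order turned for Hist1h4i (-0.19 for Medium against Low and -0.30 for High against Medium), and H1f0 had -0.14 and -0.11. Between Medium and Low, Hist1h2bc (log2 fold change of -0.70, SE 0.16, adjusted p = 0.0201) and H2afy (-0.47, SE 0.08, adjusted p = 0.00532) were lower in Medium by limma. This is 2 of 9 lower, where 5.87% of all genes were lower, 6.14% higher and 12% changed in all. The block gave 4, beside 11.7% of all genes. All 9 fold changes were negative, from -0.02 for H2afz to -0.70. In 4 of 9 every Medium library lay below every Low library, as in 15.1% of all genes. Without Low replicate 1 the count rose to 8, with H2afz the exception, while the share of all genes that were lower rose to 17.5%. The count was 1 without Low replicate 2 (3.10% of all genes), Low replicate 3 (1.59%), Medium replicate 1 (2.63%) or Medium replicate 3 (2.15%). The 1 that remained without these was H2afy, and Hist1h2bc then gave adjusted p from 0.0525 to 0.0814.

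Between High and Medium, 0 of 9 passed in limma, edgeR and DESeq2, and 0.407% of all genes changed by limma (0.326% lower and 0.0815% higher). The share of all genes at an unadjusted p under 0.05 is not given, so the next count has no background. At an unadjusted p under 0.05, 2 genes were lower in High by limma and by edgeR and 1 by DESeq2. In limma these were Hist1h2bc (log2 fold change of -0.39, SE 0.16, adjusted p = 0.383) and H2afy (-0.21, SE 0.08, adjusted p = 0.322). With H1f0 they were the 3 genes in which every High library lay below every Medium library, as in 10.8% of all genes. Both passed when lengths were corrected on the longest protein-coding transcript (0.0495 and 0.0220), beside 1.53% of all genes lower, a setting added after the data were seen. Whether the 2 steps differ in size was not tested. The 3 comparisons share libraries, so their values are not separate evidence.

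**Figure D4:**
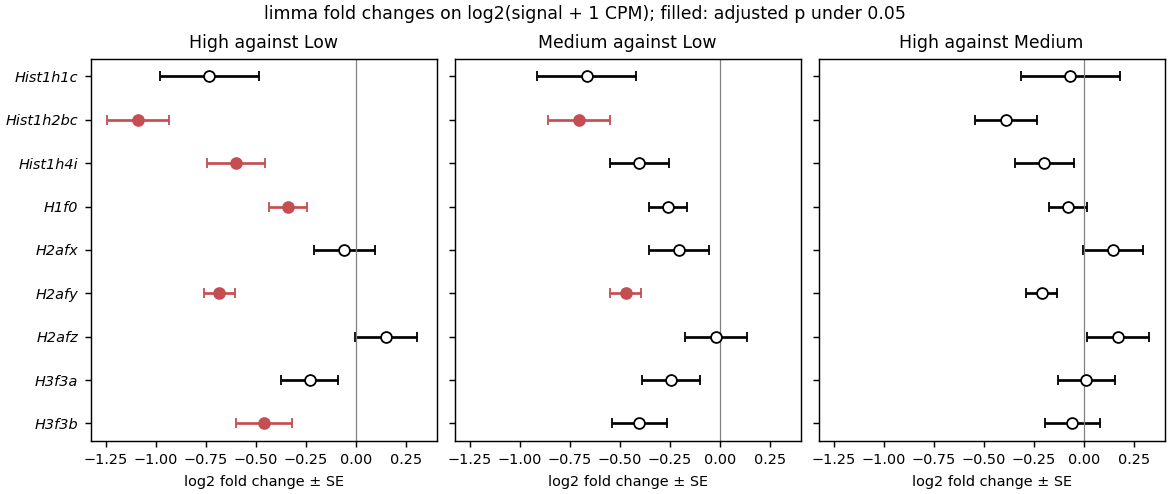
Log2 fold change ± SE of each gene (limma) for the 3 comparisons, filled where the adjusted p is under 0.05. 5 genes are filled for High against Low, 2 for Medium against Low and 0 for High against Medium.

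The ratio of the H3.3 genes inside a library does not depend on how the library is scaled. H3f3a exceeded H3f3b 1.15, 1.18 and 1.16 times in Low, 1.36, 1.27 and 1.26 times in Medium, and 1.36, 1.33 and 1.40 times in High. All Low ratios lay below all Medium and High ratios, although the amounts of both genes in Low replicate 2 were 1.52 times (H3f3a) and 1.48 times (H3f3b) those in Low replicate 1. The mean was 1.16 ± 0.0168 in Low, 1.30 ± 0.0540 in Medium and 1.36 ± 0.0326 in High (SD, n = 3). The log2 ratio was 0.23 higher in High than in Low and 0.16 higher in Medium than in Low. Each exact two-sided permutation test gave p = 0.1, the smallest that 3 libraries against 3 allow, and adjusted p = 0.3 over the 6 tests of 2 ratios. High and Medium overlapped (exact permutation p = 0.3, adjusted p = 0.36).

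The share of H3f3a in the summed signal of the pair was 53.5% to 54.2% in Low, 55.8% to 57.7% in Medium and 57.1% to 58.3% in High. The ratio of H1f0 to Hist1h1c was 6.16, 4.40 and 4.99 in Low, 13.0, 5.50 and 6.80 in Medium, and 10.2, 6.06 and 7.81 in High. These overlapped in every comparison (exact permutation p from 0.2 to 1), and the 25 reads of Hist1h1c in Medium replicate 1 gave the highest value. In same-numbered libraries the ratio was higher than in Low in 3 of 3 pairs for High and for Medium (exact sign-flip permutation p = 0.25, the smallest 3 pairs allow). The numbers did not pair between Medium and Low, and the pairing of High with Low is uncertain, so these counts of pairs add no support.

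Ratios of 2 further pairs of paralogs were examined after the values had been seen. H2afv encodes the other H2A.Z protein. H2afz exceeded H2afv 11.1, 10.6 and 10.6 times in Low, 14.1, 13.0 and 13.5 times in Medium, and 14.6, 14.3 and 14.6 times in High. The 3 populations did not overlap in this ratio (exact permutation p = 0.1 in each comparison, adjusted p = 0.12 over 6 tests). H2afz itself was called in none of the 3 comparisons of the deposited signal. The signal of H2afv is not given, so which of the 2 genes moved the ratio cannot be read from it. The share of all gene pairs whose ratios do not overlap is not given, for this or the other ratios. H2afy2 encodes macroH2A2. H2afy exceeded it 3.34, 3.47 and 3.34 times in Low, 3.37, 3.39 and 3.43 times in Medium, and 3.47, 3.71 and 3.95 times in High. High stood above both other populations (exact permutation p = 0.1, adjusted p = 0.12), but High replicate 1 (3.474) barely exceeded Low replicate 2 (3.470). The ratio in Medium and Low overlapped (exact permutation p = 0.8).

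**Figure D5:**
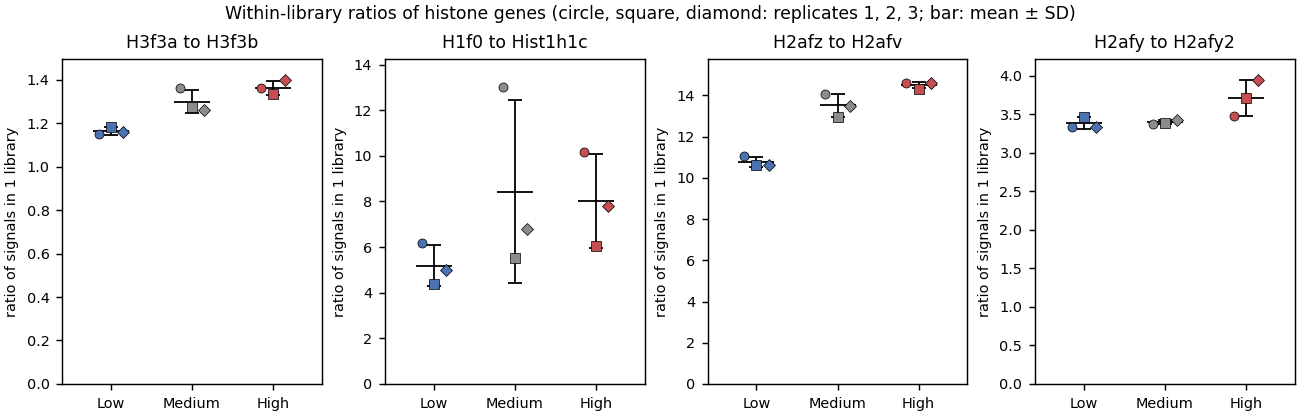
Ratio of the signals of 2 genes within each library (linear axis from 0) for 4 gene pairs, with mean ± SD. H3f3a to H3f3b stands at 1.15 to 1.18 in Low and 1.33 to 1.40 in High, and H2afz to H2afv at 10.6 to 11.1 and 14.3 to 14.6.

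Levels of different genes were compared as signal per kb of the longest protein-coding transcript. H2afz was highest, at 1090 ± 96.6 in High, followed by H3f3a (244 ± 21.5), H3f3b (202 ± 17.5), H2afx (163 ± 17.8) and H2afy (91.1 ± 4.19). The order was the same in Low, at 995 ± 225, 290 ± 59.7, 281 ± 54.3, 172 ± 37.9 and 147 ± 8.15, but there H3f3a and H3f3b differed by less than the SD of either, and H2afx and H2afy by less than the SD of H2afx. H1f0 (9.18 ± 0.282 in High), Hist1h4i (4.87 ± 0.396), Hist1h2bc (2.76 ± 0.0829) and Hist1h1c (1.57 ± 0.377) were far below. Hist1h1c, Hist1h2bc and Hist1h4i are replication-dependent genes, and whether poly(A) RNA was enriched is not stated. Their signal may leave out mRNA without a poly(A) tail, so it is no measure of their whole mRNA. H3f3a, H3f3b, H2afy and H2afz have several annotated transcripts, so their place depends on the one chosen.

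The promoter of H2afz is shown because it alone, of the 7 genes with a RefSeq entry, held the E-box bound by Myc with its partner Max. Entries were matched for all but Hist1h2bc and H2afx. The E-box CACGTG, the CCAAT box and the motif TATAAA were searched on both strands in the 250 bases before the start site, and the matches shown do not overlap. The window is chr3:137864237-137864486 on the plus strand (RefSeq, GRCm38.p6), with motif bases in capitals.
H2afz: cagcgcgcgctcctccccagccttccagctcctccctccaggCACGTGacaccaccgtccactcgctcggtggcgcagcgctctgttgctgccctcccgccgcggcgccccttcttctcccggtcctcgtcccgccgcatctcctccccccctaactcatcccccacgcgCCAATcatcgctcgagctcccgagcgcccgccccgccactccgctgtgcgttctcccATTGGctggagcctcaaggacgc
The CACGTG starts 208 bases before the start site. It was present in 1 of 7 genes and in 6.02% of 32851 promoter windows. CCAAT was present in 4 of 7 (Hist1h1c, H2afz, H3f3a and H3f3b) and in 33.8% of windows, and H3f3b held 4 copies. TATAAA was present in Hist1h4i and H3f3b and in 12.4% of windows. These matches are letters in a window and no evidence of binding.

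Of 19 other listed histone genes, most of them variants, 7 were in the table. Between High and Low, 3 of these were lower, 0 higher and 4 not called (limma, beside 14.6% of all genes lower). The median log2 fold change of the 7 was -0.52, and the list was drawn up with earlier results of these data known. Cenpa, the H3 variant of centromeres, was lower by 0.59 (211 ± 46.0 in Low and 138 ± 12.5 in High, adjusted p = 0.0185, limma; 0.0705 without Low replicate 3 and 0.0704 without High replicate 1). H2afy2 had a log2 fold change of -0.80 (88.6 ± 3.89 in Low and 50.3 ± 1.35 in High, adjusted p = 6.98e-05). Hist3h2ba, an H2B gene, had -1.13 (2.04 ± 0.725 against 0.351 ± 0.170, adjusted p = 0.00402). It rests on few reads, and its fold change on the log2 scale with a pseudocount understates the change of so low a gene. Its mean in Medium was 0.705 ± 0.282, and it met the filter of 1 CPM in 3 libraries only through Low. A call as lower was favoured by that filter, so it is no separate support. Without 1 library the count of lower genes ranged from 1 to 6, and fits without a Low library no longer held Hist3h2ba. Over all genes, the share lower ran from 8.68% to 20.2% when a Low or High library was left out.

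Genes that handle histone proteins changed in both directions. Of 38 histone chaperones and remodelers, 5 were higher and 3 lower in High, 21.1% of the list beside 28.4% of all genes. Hat1, the acetyltransferase of newly made histone H4, was lower (543 ± 54.0 in Low and 351 ± 12.7 in High, log2 fold change of -0.62, adjusted p = 0.00125, limma). Cabin1, a subunit of the HIRA complex that deposits H3.3, was higher (64.7 ± 22.6 and 109 ± 5.91, 0.80, adjusted p = 0.0167). Its call was lost without Low replicate 3 (0.0629) or High replicate 1 (0.0545) or 3 (0.0530). Ino80, an ATPase that remodels nucleosomes holding H2A.Z, was also higher (66.8 ± 15.9 and 108 ± 3.33, 0.71, adjusted p = 0.00545). A rescaling of libraries to 1 total turned this to 3 higher and 5 lower. Without 1 library the count of higher genes ranged from 1 to 14, and the share of all genes higher in those fits is not given.

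Of 27 listed factors of histone mRNA 3′ ends, 25 were in the table, with 2 higher and 1 lower in High, 12% of those measured beside 28.4% of all genes. Slbp, which binds the stem-loop printed above, was the lower one (162 ± 23.2 in Low, 135 ± 5.72 in Medium and 116 ± 5.63 in High, log2 fold change of -0.47, adjusted p = 0.00969, limma). Tut1, a nuclear nucleotidyltransferase, was higher (0.58, adjusted p = 0.00182), as was Srrt, which links the cap-binding complex to 3′ end processing (0.34, adjusted p = 0.0139; 0.0572 without High replicate 3 and 0.0596 with quantile normalization). Of 23 kinases, readers and phosphatases of phosphorylated H2A.X, 2 were higher and 1 lower, 13.0% beside the same 28.4%. Mcph1, a reader of the mark, was higher (0.42, adjusted p = 0.00444), and Usp3, a histone deubiquitinase, was lower (-0.45, adjusted p = 0.0110; 0.0503 without Low replicate 3). Eya3, a phosphatase of H2A.X, was higher (0.44, adjusted p = 0.0466), a call lost in 11 of 24 alternatives, with edgeR (0.0555) and the rescaled libraries (0.0845) among them. Without 1 library the higher genes numbered 1 to 7 for the mRNA factors and 1 to 9 for the H2A.X list, and the lower genes 1 to 3 and 0 to 3. Over all genes the share lower moved as given for the other histone genes, and the share higher is not given.

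DNA replication genes, whose products act in the phase when most histones are made, had 6 of 38 members lower and 3 higher in High, beside 14.6% and 13.8% of all genes. The median log2 fold change was -0.04. Ccne2, a cyclin of S phase entry, had -0.63 (adjusted p = 0.00150, limma). Rfc3, a clamp loader subunit, had -0.56 (0.010), and Rrm2, a ribonucleotide reductase subunit, had -0.52 (0.00138). After that rescaling, or with quantile normalization, 0 were higher. Without 1 library the higher genes numbered 0 to 7, and the share of all genes higher in those fits is not given.

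The patterns of the 9 genes over the 9 libraries were compared by correlation, which contains the differences between populations and is no separate result. Pairs of log2 values correlated most for Hist1h2bc with H2afy (Pearson r = 0.98) and with Hist1h4i (0.97), and least for H2afy with H2afz (-0.10). The pairs did not split by call: H3f3a and Hist1h1c, not called between High and Low, had 0.93 and 0.91 with H3f3b, which was called. The genes most like each in pattern, among named genes above the 25th percentile of mean level, were Cebpb, Cnn2 and Cldn7 for Hist1h2bc (r from 0.991 to 0.993) and Krt42, Morf4l2 and Ap1m2 for H2afy (0.996 to 0.998). H3f3a was most like the ribosomal protein genes Rpl7 and Rps13 (0.992 each), H2afz like Chchd10, Nop10 and Cfl1 (0.992 to 0.996), and H2afx like Gmnn, Rpl8 and Txndc9 (0.985 to 0.988). H3f3b was most like Hmgn2, Gnas and Cenpa (0.994 to 0.997). H1f0 was most like Leprotl1, Plcxd1 and Hccs (0.969 to 0.974), Hist1h4i like Ypel5, Crb3 and S100a6 (0.982 to 0.986), and Hist1h1c like Crip1, Nfkbia and Rad51ap1 (0.971 to 0.977). These are the highest of many values over 9 libraries that share populations and length trends, and are given as a description.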

How the data were processed

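The authors deposited a signal per gene and library, gene read counts scaled per library to near CPM. Tools listed, per the submitters' processing notes, are RSEM 1.17, limma, cutadapt and Picard, without their roles. The build, gene annotation and strand setting were not given in the sources used here. Every deposited value was a whole multiple of the value of 1 read, within 0.001 read. 85 genes had no name (1.71% to 2.53% of the signal) and stayed in the tests.

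All 9 libraries and 13499 genes entered 1 limma fit (limma 3.58.1, R 4.3.3) of log2(signal + 1 CPM) on population, its variance prior following the mean level. Genes needed 1 CPM in at least 3 libraries, which all reached. The p-values were adjusted by Benjamini-Hochberg across the whole table (threshold 0.05). Fold changes on this scale understate those of low genes. edgeR 4.0.16 and DESeq2 1.42.0 were run on recovered reads. Ratios were compared by exact permutation. Scripts were tested on simulated data. Transcript lengths and gene coordinates came from GENCODE M21 on GRCm38, matched for 13412 genes (99.4%). The length correction subtracts, per library, the lowess trend of deviations from the gene mean on log2 length.

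The members and lists were chosen with earlier results of these data known. Genes named beside the 9 are, for each list, the 3 with the largest called fold change between High and Low, and, for each of the 9, the 3 with the highest correlation. One gene that this rule names is not reported here. Low and High libraries of the same number deviated together (r of 0.53, 0.26 and 0.18, each above 0.1), which meets the rule for reading the number as pairing there. Differently numbered libraries also correlated, Low 2 with High 3 at 0.31 and Low 3 with High 2 at 0.12, so the pairing is uncertain. Medium and Low gave 0.24, 0.43 and -0.11, and High and Medium 0.35, 0.17 and -0.04.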

Additional observations from a re-analysis of the deposited data

How the results depend on the processing

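Each population has 3 libraries, the Low libraries differ among themselves, and Hist1h1c, Hist1h2bc and Hist1h4i rest on 25 to 112 reads a library. Values are counts of called genes unless said to be log2, and causes were not tested. The replicate block gave 4 of the 9 genes lower for Medium against Low, where the numbers did not pair, and for High against Low 5 chaperones lower and 12 higher, 5 H2A.X genes higher and 6 replication genes higher. It added the call for Hist1h1c and changed no other call among the 9 for High against Low. Beyond leaving out libraries, the replicate block with the length correction, the length correction alone and that on the longest protein-coding transcript each gave 1 of the 9 higher in High than in Low (H2afz), a log2 fold change of 0.0450 for H2afx and, for H2afz in Medium against Low, 0.17, 0.17 and 0.18. In that order they gave 19, 14 and 17 chaperones and 9, 8 and 8 replication genes higher. The block with the correction also gave 4 of the 9 lower for Medium against Low, and 5 other histone variants, 5 chaperones, 3 mRNA factors and 2 H2A.X genes lower with 5 H2A.X genes higher. The coding-length version gave 4 H2A.X genes higher and, for High against Medium, 2 of the 9 lower. Sample weights, whose estimate stopped before it converged, gave 1 of the 9 higher for High against Low and 8 lower for Medium against Low, and 7 other variants, 10 chaperones, 3 mRNA factors, 4 H2A.X genes and 13 replication genes lower with 21, 8, 11 and 9 of the last 4 lists higher. Weights estimated gene by gene (added after seeing the data) gave 8, then 7, 9, 2, 4 and 11 lower with 19, 5, 10 and 8 higher. Rescaling to the same total gave 5 chaperones lower and 3 higher, 1 H2A.X gene and 0 replication genes higher, and a log2 fold change of -0.0096 for H3f3a in High against Medium. Quantile normalization gave 2 chaperones, 1 mRNA factor, 1 H2A.X gene and 0 replication genes higher, 2 H2A.X genes and 11 replication genes lower, and 0.0638 for H2afz in Medium against Low. Without a variance trend, and with edgeR, 1 H2A.X gene was higher, and with DESeq2 9 chaperones were. Except where printed above, the share of all genes called under these settings is not given. Counts such as those under the weights or the block with the correction cannot be read as particular to the 9 or the lists.

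Leaving out each library gave 2 to 7 of the 9 lower for High against Low and 1 to 8 for Medium against Low. The share of all genes lower also moved, from 8.68% to 20.2% and from 1.59% to 17.5% in the fits given above. The share higher is not given for these fits. The lists ranged from 1 to 6 lower for other variants, 3 to 6 lower and 1 to 14 higher for chaperones, 1 to 3 lower and 1 to 7 higher for mRNA factors, 0 to 3 and 1 to 9 for the H2A.X list, and 4 to 8 and 0 to 7 for replication. Log2 fold changes ranged from -0.24 to 0.0872 (H2afx) and -0.0250 to 0.31 (H2afz) for High against Low, and from -0.20 to 0.14 for H2afz in Medium against Low. For High against Medium they ranged from -0.32 to 0.14 (Hist1h1c), -0.0325 to 0.0881 (H3f3a) and -0.10 to 0.0161 (H3f3b), and the log2 ratio of H1f0 to Hist1h1c from -0.26 to 0.36. The log2 ratio of H3f3a to H3f3b stayed between 0.21 and 0.24 for High against Low and between 0.12 and 0.18 for Medium against Low. In same-numbered libraries, which is the replicate block for a ratio, it was higher in 3 of 3 for both (exact sign-flip permutation p = 0.25, the smallest 3 pairs allow). All Low ratios lay below all Medium and High ratios, so any pairing of libraries gives this outcome and it adds no support.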
